A study of Mus musculus with 2 samples.

Results

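Oligodendrocyte precursors in division were examined in the injured mouse spinal cord 3 days after injury (3 dpi). The members were chosen by measured values: a barcode of the 3 dpi library was taken if it held at least 2000 unique molecular identifiers (UMIs, each standing for 1 captured RNA molecule), at least 5 UMIs per 10000 of Pdgfra, Cspg4 and C1ql1 together, at least 1 UMI of Ptprz1, fewer than 10 per 10000 of the collagens Col1a1 and Col1a2, fewer than 10 per 10000 of the pericyte genes Rgs5 and Vtn, and at least 3 UMIs summed over 10 proliferation genes (Mki67, Top2a, Cdk1, Ccnb1, Birc5, Cenpf, Tpx2, Ube2c, Pclaf and Ccna2). Of 13594 barcodes in the 3 dpi library, 11702 reached the depth limit, 855 passed every gate for a precursor, and 558 also passed the proliferation threshold. The whole series held 23732 barcodes. The 558 are called cycling precursors here, and the other 297 are called non-cycling precursors, a name that covers cells with 0 to 2 proliferation UMIs.

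The study profiled single cells of the spinal cord from sham mice and from injured mice at 3 dpi, with the 10X Chromium 3′ chemistry on a segment of 8 mm around the injury. Each library pooled 5 male and 5 female C57BL/6 mice aged 8 weeks, and the labels name no transgene or drug for either group. The labels used here do not say how the cord was injured. With 1 library per group there is no replicate, so no test across mice can be made, and injury and library cannot be told apart in any comparison with sham.

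Oligodendrocyte precursors are glial cells that carry the PDGF receptor alpha and the proteoglycan NG2 (encoded by Cspg4), and that divide and give rise to myelinating oligodendrocytes throughout life. After injury of the central nervous system they enter the cell cycle, take on some features of reactive glia and can later replace lost oligodendrocytes. Leaving the cycle and starting the myelin programme usually go together: committed precursors switch on Gpr17, Bmp4 and Enpp6 before the myelin genes.

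Levels are given as UMIs per 1000000 of a group's summed UMIs (CPM), with exact 95% Poisson intervals in square brackets. Shares carry exact 95% binomial intervals. Both cover counting error only, not differences between mice. A gene was measured in a comparison if it reached 20 CPM in 1 of both groups, and counted as higher or lower when it differed 2-fold after 10 CPM were added to both sides. Log2 ratios are on that scale.

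The precursor label was checked with 10 precursor markers. All 10 reached 20 CPM in the cycling precursors, but Pdgfra, Cspg4, C1ql1 and Ptprz1 among them had chosen the members. Their levels are no support for the label. Among the markers that the rule did not use, Sox10 was at 278 CPM and Lhfpl3 at 228 CPM. The endothelial markers, which the rule did not use, reached 20 per 10000 in 0 of 558 members, and a limit of 3 cells then allows a share of up to 0.538%. The fibroblast and pericyte lists were also at 0 cells, but the limits of the rule on collagens and on Rgs5 and Vtn largely fix that. Of the ependymal markers 0 of 6 reached 20 CPM. RNA of other neural cells was present at a low level, with 6 of 7 mature oligodendrocyte, 4 of 8 astrocyte and 2 of 6 neuron markers at 20 CPM or more. These lists reached 20 per 10000 in 9 (1.61%), 15 (2.69%) and 0 members. In sham precursors the same shares were 10.1%, 18.3% and 3.05%. Leukocyte RNA was present: the summed microglia markers had a median of 3.68 per 10000, and 51 members (9.14%) held 20 or more. Together, 77 members held 20 or more per 10000 of the microglia, monocyte and neutrophil markers, and results that depend on them are given without them below. The 481 members left are called members without leukocyte markers, although they can hold such RNA below that limit. A neighbour-based caller marked 72 members (12.9%) as possible doublets, against 37 (12.5%) of the non-cycling and 44 (13.4%) of the sham precursors. No member shared its barcode sequence with the sham library, although 39 sequences occurred in both libraries.

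Members were the deeper cells of the gate. They summed to 8510639 UMIs with a median of 14055 per cell (2290 to 58193), against a median of 7320 in the 297 non-cycling precursors and 5382.5 in the 328 sham precursors. Ribosomal protein genes took 16.5%, 14.3% and 6.69% of UMIs in the same order.

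At 3 dpi most precursors were in the cell cycle by this rule, and in sham few were. The share over the threshold was 65.3% [62.0 to 68.5] of 855 precursors at 3 dpi and 3.05% [1.47 to 5.54] of 328 in sham, where 10 cells passed. Because deep cells pass more easily, each cell was also thinned to 2000 UMIs: the shares were then 46.1% [42.7 to 49.5] and 2.44% [1.06 to 4.75]. In 3 dpi oligodendrocytes, taken as a background since mature oligodendrocytes do not divide, 4.31% of 1556 cells passed at a median depth of 9482.5 UMIs, and 0.771% after thinning. Other glial and stromal cells of the injured cord were cycling too, but at lower shares after thinning: 23.8% [22.2 to 25.4] of microglia, 26.7% [23.3 to 30.3] of fibroblasts and 20.4% [16.2 to 25] of endothelial cells.

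**Figure D1:**
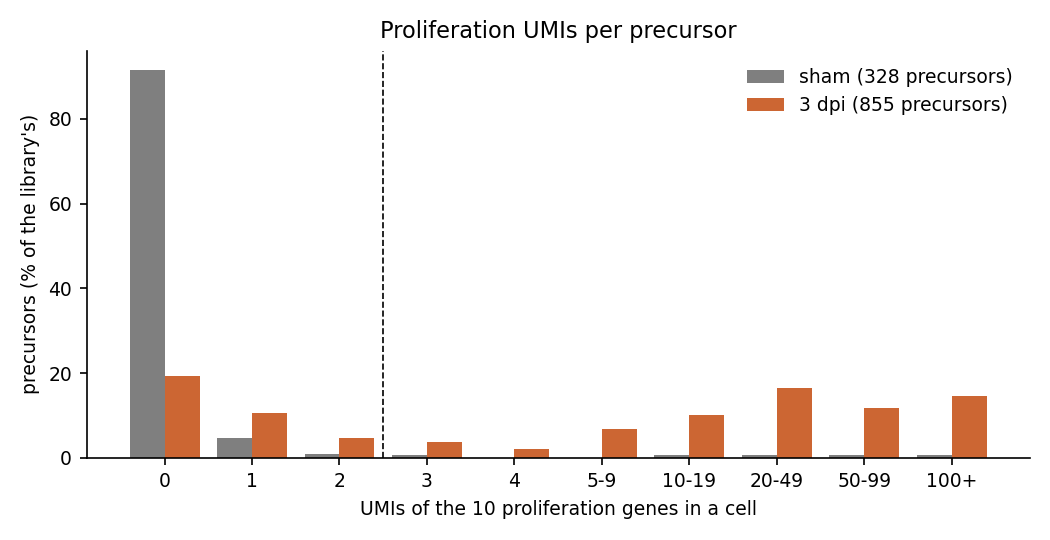
Share of precursors in each library (y axis, percent) by the number of UMIs of the 10 proliferation genes in a cell (x axis), with the threshold as a dashed line. Sham precursors pile up at 0 UMIs, while 3 dpi precursors spread from 0 to more than 100.

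The threshold lay on the falling side of the peak at 0 UMIs and not in a gap. Among the 855 precursors at 3 dpi, 165 had 0 proliferation UMIs, 91 had 1, 41 had 2, 31 had 3 and 18 had 4. Another 58 had 5 to 9, and 124 had 100 or more. The cells with 2 UMIs had a median depth of 7355 and those with 3 UMIs a median of 12452, so depth differs across the threshold. On the precursor side, 52 members had 5 to 6 UMIs per 10000 of Pdgfra, Cspg4 and C1ql1, and 50 barcodes with 4 to 5 failed only there. Cells of both sexes were cycling: 61.4% [55.6 to 67.0] of 298 female-derived and 73.2% [67.8 to 78.1] of 302 male-derived precursors passed. Their median depths were 10771 and 13208 UMIs, and the part of depth in that gap was not tested.

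The genes that chose the members give the size of the contrast, as a description only. Mki67, a nuclear protein of dividing cells, was at 457 CPM [443 to 472] in cycling, 6.24 [3.63 to 9.98] in non-cycling and 17.5 [12.2 to 24.2] in sham precursors. Top2a, the topoisomerase that untangles replicated chromosomes, was at 552 [537 to 568], 5.50 [3.08 to 9.08] and 30.1 [23.1 to 38.6]. Of 529 UMIs of the 10 proliferation genes in sham precursors, 508 lay in the 10 cells over the threshold.

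Genes of the machinery of division were higher in cycling than in non-cycling precursors of the injured cord. Of 7221 genes measured, 270 (3.74%) were higher and 101 (1.4%) lower in cycling cells, with the rule genes left out. The lower count was less stable: it was 228 after thinning to 2000 UMIs, which matches the depth of the cells, 218 without cells at 5 or more leukocyte UMIs per 10000 and 212 with 1 CPM added. The rule split the cells on proliferation genes, so this contrast is described and supports nothing. The median log2 ratio over all measured genes was -0.04.

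Kinetochore genes, which attach chromosomes to the spindle, stood highest as a list: all 24 measured were called higher, with a median log2 ratio of 2.44. Cdca8, a subunit of the chromosomal passenger complex, was at 302 CPM [291 to 314] in cycling and 5.14 [2.81 to 8.62] in non-cycling cells. Knl1, the kinetochore scaffold, was at 85.2 CPM in cycling cells and had 0 UMIs in the non-cycling ones. Spindle and cytokinesis genes were higher in 30 of 32, with a median of 2.42, led by the hyaluronan-mediated motility receptor Hmmr at 189 against 0.734 CPM. Genes of mitotic entry and exit were higher in 22 of 24, with a median of 2.03. Cdc20, which activates the anaphase-promoting complex, was at 213 CPM [203 to 223] against 2.20 [0.808 to 4.79], and the mitotic kinase Plk1 at 98.6 against 0.734.

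Replication genes were higher with smaller ratios. Of the replication fork list, 31 of 34 measured were higher and 0 lower, with a median of 1.62. The helicase subunit Mcm5 was at 108 CPM [101 to 115] against 10.3 [6.83 to 14.8], and Clspn, the adaptor of the replication checkpoint, at 92.1 against 4.04. In the nucleotide supply list 7 of 16 were called. The ribonucleotide reductase subunit Rrm2 was at 182 against 5.14 CPM, while enzymes of purine synthesis such as Paics (130 against 89.1) and Gmps (65.8 against 51.0) stayed within 2-fold. Among chromatin genes 17 of 23 were higher, including the histone variant gene H2afz at 2644 against 687 CPM, the linker histone gene Hist1h1b at 214 against 4.40 and Hist1h2ap at 783 against 34.5. The last 2 belong to families of near-identical copies, so their assignment to 1 gene is uncertain. Condensin and cohesin genes were higher in 10 of 12 and DNA repair genes in 9 of 11.

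The promoters of these 2 groups differed in how often they held 3 short sequences, and 6 promoters are shown because the genes of each group were higher together. RefSeq promoters (build GRCm38.p6, 250 bases before to 50 after the start) matched 73 of 87 genes of the mitosis lists and 47 of 57 of the replication lists. The sequence TTTGAA, the core of the cell cycle homology region element, was found on either strand in 58.8% of 80 mitosis-list promoters, in 13.2% of 53 replication-list promoters and in 17.9% of all 32851 promoters in the table. CCAAT was found in 72.5%, 52.8% and 37.4%. TTTNNCGC, a core of many E2F sites, was found in 16.2%, 28.3% and 5.17%. A match is a description of letters and not a bound site, and genes in these lists share ancestry and annotation. Promoters on a single chromosome were left out before genes were chosen for printing. The choice was then among mitosis-list genes with TTTGAA in the 150 bases before the start and 1 listed promoter. The 3 with the highest ratio are printed, 5′ to 3′ on the gene's strand, with matches to the 3 motifs in capitals. Cdc20 (chr4:118437344-118437493, minus strand), Ckap2, a spindle protein gene (chr8:22185820-22185969, minus), and Kif11, the spindle motor gene (chr19:37376232-37376381, plus) read:
Cdc20: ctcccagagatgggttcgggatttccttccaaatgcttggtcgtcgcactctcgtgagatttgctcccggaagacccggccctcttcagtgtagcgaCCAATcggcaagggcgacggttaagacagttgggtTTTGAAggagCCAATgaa
Ckap2: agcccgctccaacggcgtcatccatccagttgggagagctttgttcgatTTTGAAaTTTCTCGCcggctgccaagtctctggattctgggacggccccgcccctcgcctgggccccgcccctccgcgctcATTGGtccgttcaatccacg
Kif11: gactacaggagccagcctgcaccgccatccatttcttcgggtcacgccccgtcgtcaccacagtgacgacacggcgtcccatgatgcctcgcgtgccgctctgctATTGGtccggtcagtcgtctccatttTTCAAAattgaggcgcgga
The same rule with TTTNNCGC in the replication lists gave the helicase genes Mcm5 (chr8:75109359-75109508, plus) and Mcm6 (chr1:128359706-128359855, minus) and the DNA polymerase alpha gene Pola1 (chrX:93632156-93632305, minus):
Mcm5: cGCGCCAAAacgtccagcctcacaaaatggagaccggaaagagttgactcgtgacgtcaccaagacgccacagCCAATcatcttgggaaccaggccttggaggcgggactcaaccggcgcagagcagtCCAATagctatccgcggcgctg
Mcm6: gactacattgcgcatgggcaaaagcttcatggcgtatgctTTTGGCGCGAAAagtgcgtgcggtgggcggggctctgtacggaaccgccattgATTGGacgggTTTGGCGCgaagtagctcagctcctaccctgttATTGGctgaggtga
Pola1: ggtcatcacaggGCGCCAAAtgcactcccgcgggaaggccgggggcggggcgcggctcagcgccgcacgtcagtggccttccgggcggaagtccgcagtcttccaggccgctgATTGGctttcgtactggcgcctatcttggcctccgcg
In Cdc20 and Kif11 the TTTGAA match began 18 and 19 bases before the start, and in both a CCAAT match lay further upstream, at 53 and 45 bases. All 6 stretches held a CCAAT match, and only the Ckap2 stretch among the 3 mitosis genes also held TTTNNCGC. No coordinates come from the deposited tables, which name genes by symbol.

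Brakes and drivers of the G1 phase behaved unlike the division genes. Cyclin D1 (Ccnd1) was at 2187 CPM [2156 to 2218] in cycling, 1960.0 [1908 to 2013] in non-cycling and 1285 [1236 to 1334] in sham precursors, so the non-cycling cells at 3 dpi were closer to the cycling ones than to sham. Its partner Cdk4 showed the same order at 377, 302 and 175 CPM. Of 10 measured G1/S regulators 2 were called higher in cycling than in non-cycling cells, where 3.74% of all genes were. Among them was the transcription factor gene E2f1 at 26.3 [23.0 to 30] against 4.40 [2.27 to 7.69] CPM. Against sham 4 of 11 were higher, where 7.81% of all genes were. The CDK inhibitor gene Cdkn1a, a p53 target, was highest in the cycling cells at 488 [473 to 503], against 355 [333 to 379] and 144 [128 to 162].

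A single brake of the list was called lower in cycling cells. Cdkn1c, encoding p57, an inhibitor linked to cell cycle exit in this lineage, was at 22.6 CPM [19.5 to 26.0] in cycling, 92.8 [81.7 to 105] in non-cycling and 100.5 [87.3 to 115] in sham precursors. Cdkn2c and Cdkn2d, which encode inhibitors of CDK4 and CDK6, went the other way: Cdkn2c was at 102 [95.4 to 109] against 28.6 [22.6 to 35.7], and Cdkn2d at 163 [154 to 172] against 68.2 [58.8 to 78.8]. Cdkn1b, encoding p27, was at 39.0 against 41.1 CPM.

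Replication and mitosis genes were compared within members after thinning each cell to 2000 UMIs. Of 558 members, 257 (46.1% [41.9 to 50.3]) held at least 2 times as many UMIs of the mitosis lists as of the replication lists, 79 (14.2% [11.4 to 17.3]) the reverse, 213 lay between and 9 had fewer than 3 such UMIs. These classes are ranges of a score and not cell types: 176 members lay near a class limit, and with all UMIs used the counts were 245, 57 and 256. The scored lists hold 82 mitosis genes, the 87 above without Stmn1 and the tubulin genes, and 57 replication genes, so the split has no absolute meaning. The 10 rule genes had a median of 52.5 per 10000 in mitosis-leaning and 10.5 in replication-leaning members. A threshold on them thus tilts the split. By the same limits, 30.3% of the 297 non-cycling precursors were replication-leaning and 21.2% mitosis-leaning, with a median of 4 scored UMIs. The part of replicating cells among them was not tested. Under the same limits, cycling microglia of the same library were mitosis-leaning in 39.1% [36.4 to 41.8] and replication-leaning in 23.7% [21.4 to 26.2], with a lower median of such UMIs per thinned cell (12 against 23).

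**Figure D2:**
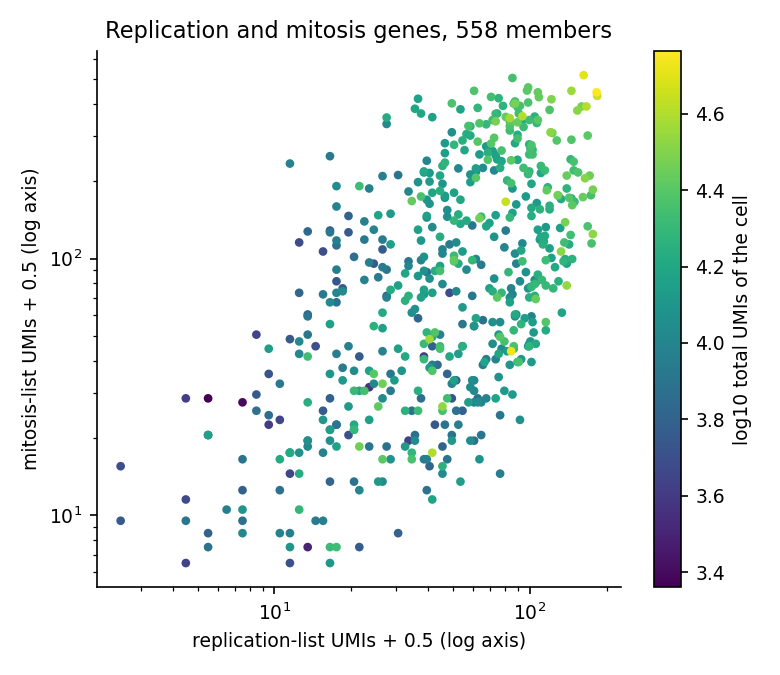
Each point is 1 of the 558 cycling precursors, by UMIs of the replication lists (x axis) and of the mitosis lists (y axis), with 0.5 added and both axes logarithmic. Colour gives the log10 total UMIs of the cell, which are higher toward the upper right, and cells spread across it without separate clusters.

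Genes outside the scored lists also differed between the 2 ends. Cdkn2c was at 151 CPM in mitosis-leaning and 42.0 in replication-leaning members, and Cdkn2d at 211 and 66.3. The histone variant gene H2afx was at 480 and 108 CPM and the chromatin gene Hmgb2 at 1284 and 451, while Hells, a chromatin remodeller of replicating DNA, was at 39.7 and 129 and the methylation cofactor Uhrf1 at 47.1 and 117. The lineage genes Olig1 (988 against 1605 CPM) and Sox4 (277 against 498) were lower at the mitosis-leaning end. Median depth was 14227 UMIs in the mitosis-leaning and 12225 in the replication-leaning members.

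Commitment genes were lower in cycling than in non-cycling precursors. In the committed precursor list 7 of 13 measured were called lower and 0 higher, with a median of -1.09, where 1.4% of all genes were lower. Gpr17, a receptor of precursors about to differentiate, was at 71.2 CPM [65.6 to 77.1] in cycling, 358 [336 to 382] in non-cycling and 605 [572 to 640] in sham precursors, against 0.359 CPM in cycling microglia. Bmp4 was at 3.29 [2.19 to 4.75], 22.7 [17.4 to 29.2] and 48.5 [39.5 to 59.0]. Lims2 was at 96.1, 248 and 559 and the deacetylase gene Sirt2 at 212, 497 and 1049.7 CPM, so the 3 groups kept 1 order. Summed mature oligodendrocyte markers moved in the same order, at 2.33, 9.15 and 23.1 per 10000 in cycling, non-cycling and sham precursors. The medians per cell did not keep it, at 0.719, 0.558 and 4.33, while 1.61%, 4.71% and 10.1% of cells held 20 or more. The part of this RNA in these differences was not tested. Against 3 dpi oligodendrocytes, 7 of 14 committed genes were at or below that cell type's level in members without leukocyte markers: Sirt2 was at 871 CPM there, while Gpr17 was at 1.76, Bmp4 at 0.769 and Lims2 at 7.41. Bcas1, a marker of early myelinating cells, departed from the order of the 3 groups, at 347, 601 and 400 CPM. Among all 855 precursors at 3 dpi, in bins of 0, up to 5, 5 to 20, 20 to 50, and 50 or more proliferation UMIs per 10000, Gpr17 was at 439, 194, 89.1, 65.0 and 55.1 CPM.

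Summed myelin gene RNA was lower in the same order, at levels that microglia also showed. The myelin list was lower in 11 of 14 against non-cycling cells, where 1.4% of all genes were lower. Of 15 myelin genes, 12 were at or below the microglial level in both libraries, the others being Cnp, Cldn11 and Ugt8a. Ptgds, a prostaglandin synthase gene abundant in oligodendrocytes, was at 16.0 CPM in cycling, 199.6 in non-cycling and 3279 in sham precursors, while microglia held 46.0 CPM in cycling cells at 3 dpi and 5134 in sham. Among male-derived cells Ptgds had a log2 ratio of 0.63 between cycling and non-cycling cells, against -3.01 in all cells and -0.31 with called doublets left out.

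Precursor identity genes were lower in cycling cells, mostly within 2-fold. Of 36 measured, 5 were called lower and 0 higher than in non-cycling cells, with a median of -0.61, where 1.4% of all genes were lower. Sox8 was at 24.6 against 73.0 CPM, Sema5a at 10.1 against 48.4 and the sialidase gene Neu4 at 45.7 against 133. The stem cell factor Sox2 was at 246 [235 to 256] against 190 [174 to 208], within 2-fold. Pdgfra itself, a gate gene, was at 299.9 [288 to 312] against 331 [309 to 353].

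Against sham, cycling precursors had 641 of 8210 measured genes higher (7.81%) and 1166 lower (14.2%), with a median over all genes of -0.25. With median-of-ratios scaling, which moved that centre by 0.31, the split was 875 higher and 737 lower. The non-cycling precursors, compared with the same sham cells, gave 380 higher (4.74%) and 551 lower (6.87%) of 8019. Both comparisons share the sham cells, so their values are set side by side and not taken as support for each other.

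Identity genes were lower in both groups at 3 dpi. Of 36 measured, 28 were called lower in cycling and 23 in non-cycling precursors, with medians of -1.76 and -1.12. Olig1, a lineage factor of oligodendrocytes, was at 1145 CPM [1122 to 1168] in cycling, 1608 [1561 to 1656] in non-cycling and 3246 [3168 to 3324] in sham precursors, and Olig2 at 319, 375 and 1117. The brain lectican gene Bcan was at 83.4 [77.4 to 89.8], 168 [153 to 184] and 807 [769 to 847]. Sox10 was at 278, 416 and 459, and Sox2 at 246, 190 and 237 CPM. The rule asked for a minimum summed level of Pdgfra, Cspg4 and C1ql1 and for at least 1 UMI of Ptprz1 in both libraries. Their levels are descriptions: C1ql1 was at 527, 988 and 1601 CPM and Ptprz1 at 605, 847 and 1641. A limit of 1 UMI is harder to reach for shallow cells. The Ptprz1 step removed 283 of 626 barcodes in sham and 72 of 935 at 3 dpi. The part of that step in the lower identity genes was not tested.

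**Figure D3:**
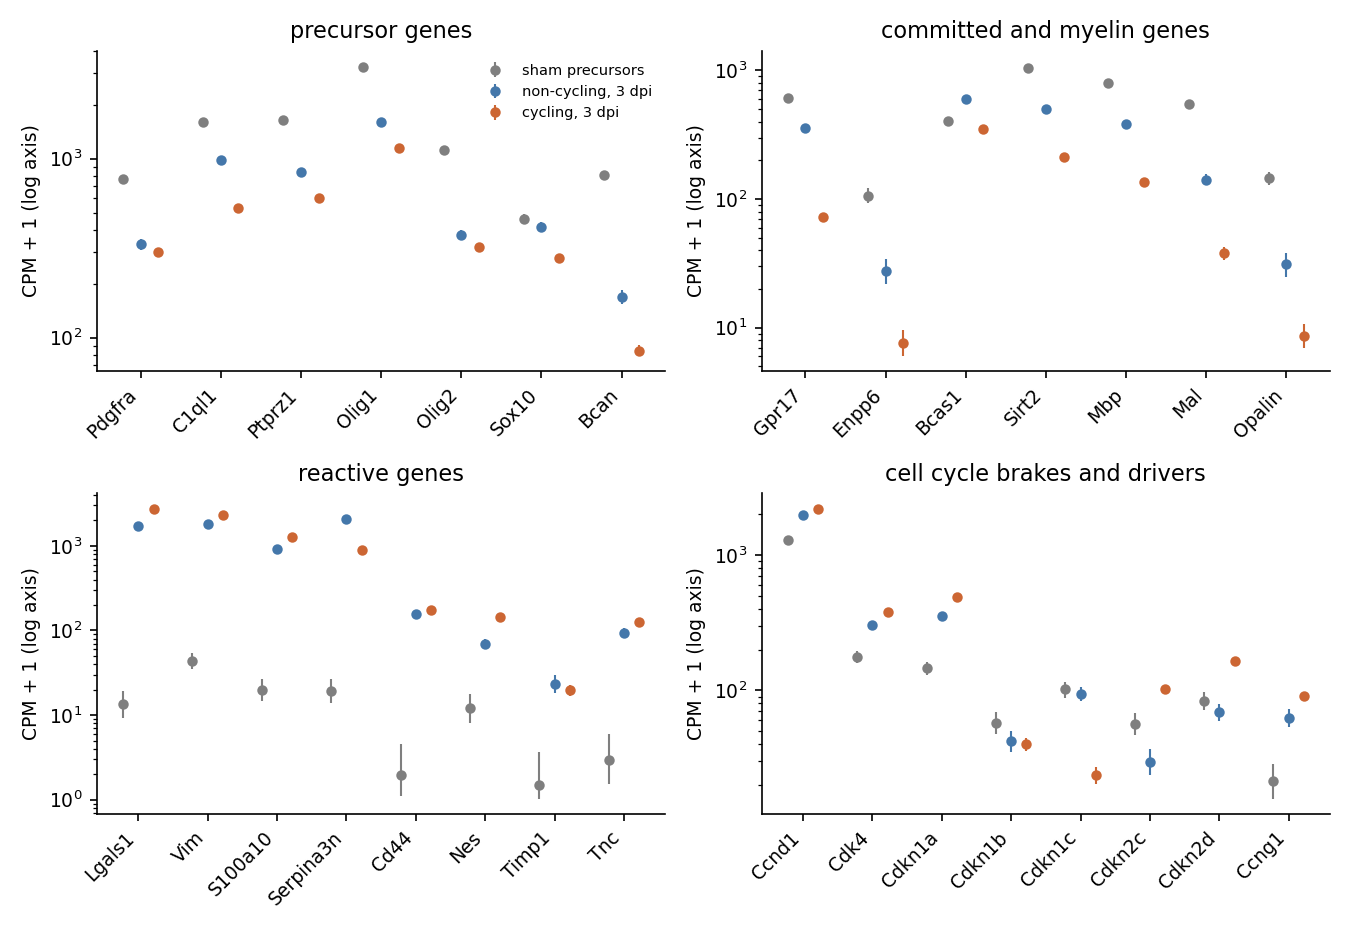
Level of selected genes in sham, non-cycling and cycling precursors (y axis, CPM + 1, logarithmic), with 95% Poisson intervals as bars. Precursor, committed and myelin genes step down from sham to cycling cells for most genes shown, reactive genes are higher in both 3 dpi groups, and Cdkn1c is low in cycling cells alone.

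Reactive genes had the highest median against sham of the 24 lists, at a similar level in cycling and non-cycling cells. Of 19 measured, 14 were called higher than sham and 1 (Socs3) lower in cycling cells, with a median of 2.85. In non-cycling cells 17 of 20 were higher, with a median of 2.84. Of all measured genes, 7.81% were higher than sham in cycling and 4.74% in non-cycling cells. Lgals1, encoding galectin-1, was at 2759.7 CPM [2724 to 2795] in cycling, 1728 [1679 to 1778] in non-cycling and 12.6 [8.25 to 18.5] in sham precursors, a ratio to sham of 219 [149 to 335]. The intermediate filament gene Vim was at 2308, 1792 and 42.7 CPM, S100a10 at 1274, 923 and 18.9, and Cd44, the hyaluronan receptor, at 174, 157 and 0.971. For these 4 genes the members below 20 leukocyte UMIs per 10000 had 2857, 2430, 1369 and 176 CPM. All were above the level in 3 dpi oligodendrocytes.

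Several reactive genes were not separable from RNA of other cells. Spp1, encoding osteopontin, had 0 UMIs in sham and 3133 CPM in members, at least 2151-fold higher by the 3-UMI limit in sham, but it was at 29079 CPM in cycling microglia, 854 in members without leukocyte markers and 1154 in oligodendrocytes. Lgals3 was at 442 CPM in all members, 200.4 without leukocyte markers and 562 in oligodendrocytes. Of the 19 reactive genes, 9 were at or below the oligodendrocyte level in the members without leukocyte markers. The heme oxygenase gene Hmox1 was at 612 CPM in all members, 356 without leukocyte markers and 3848 in cycling microglia. Serpina3n and C4b were higher than sham and lower in cycling than in non-cycling precursors: Serpina3n was at 901 [881 to 922], 2067 [2014 to 2122] and 18.4 [13.1 to 25.3] CPM, and C4b at 116, 265 and 28.6, while oligodendrocytes held 3994 and 524 CPM. Nes, the progenitor filament gene, was at 143 [135 to 151] in cycling, 68.6 [59.1 to 79.2] in non-cycling and 11.2 [7.08 to 16.8] in sham cells.

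Other genes were higher in both 3 dpi groups, with the level in microglia of the same library given for Tnc only. Tnc, the matrix protein tenascin-C, was at 125 CPM [118 to 133] in cycling, 92.8 [81.7 to 105] in non-cycling and 1.94 [0.529 to 4.97] in sham precursors, and at 6.64 in cycling microglia. Hmga2, a chromatin protein of embryonic and regenerating tissue, was at 169, 114 and 0 CPM, at least 116-fold higher than the 3-UMI limit in sham. Aldh1a3, an enzyme of retinoic acid synthesis, was at 235 [225 to 246], 104 [92.1 to 117] and 2.91 [1.07 to 6.34]. Vgf, a secreted neuropeptide precursor, was at 462, 494 and 7.77 CPM, Syt4 at 629.8, 583 and 20.4, and Tm4sf1 at 564, 483 and 14.1. The transcription regulators Id3 (345, 300 and 39.3) and Sox9 (45.2, 37.8 and 4.37) were higher than sham as well, the latter a factor of neural progenitors and astrocytes. The astrocyte marker Gfap was at 278, 360 and 13.1 CPM, while the summed astrocyte markers went the other way, at 5.28, 8.36 and 12.1 per 10000, and reached 20 per 10000 in 2.69%, 7.74% and 18.3% of cells.

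Immediate early, ERK feedback, growth factor receptor and cholesterol synthesis genes were lower than in sham. Of all 8210 measured genes, 14.2% were lower in cycling cells. Immediate early genes were lower in 13 of 15, with Fos at 1504, 2337 and 4964 CPM in cycling, non-cycling and sham cells and Jun at 1083, 1859 and 4041. Microglia differed in the same direction, with Fos at 3499.5 CPM in sham and 593.5 in cycling cells at 3 dpi, and Jun at 6414 and 415. Feedback targets of ERK signalling, which report growth factor receptor activity, were lower in 5 of 12 with a median of -0.91, led by Spry4 at 19.2, 18.3 and 91.8 CPM. Cholesterol synthesis genes were lower in 13 of 18 with a median of -1.21, and Hmgcs1 was at 130 [123 to 138], 278 [258 to 298] and 581 [548 to 615]. Of these 18 genes, 17 were at or below the 3 dpi oligodendrocyte level in members without leukocyte markers (Hmgcs1 was at 560.2 CPM in oligodendrocytes). Compared with the 10 sham cells over the threshold, members had 17 of 18 lower, with a median of -1.81, where 20.7% of all genes were lower. In that comparison 3 of 13 myelin genes were higher and 2 lower, with a median of 0.08. The part of the higher oligodendrocyte RNA in sham precursors was not tested. Against all sham precursors, growth factor receptor genes were lower in 8 of 15 and higher in 0, with a median of -1.06. The FGF receptor gene Fgfr2 was at 10.2, 12.8 and 65.5 CPM in cycling, non-cycling and sham cells.

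Notch and progenitor genes were called in both directions, 3 higher and 3 lower of 14, where 7.81% of all genes were higher and 14.2% lower. The same shares apply to the other lists of this paragraph, and counts of a few genes are not read as results about a list. The Notch ligand genes Dll1 (5.99, 8.07 and 46.1 CPM in cycling, non-cycling and sham cells) and Dll3 (14.2, 18.3 and 55.3) were lower than sham in both groups, while Id1, an inhibitor of basic helix-loop-helix factors, was at 158, 105 and 58.3. Of 9 interferon and MHC genes, 2 were higher and 1 lower, and all 9 were at or below the microglial level in both libraries. Matrix genes also split by member: of 14 measured, 2 were higher (Tnc and Fn1) and 7 lower, and Fn1 was at 158 CPM in all members against 61.5 without leukocyte markers. Glycolysis genes were higher in 5 and lower in 2 of 17, with Gapdh at 1653, 1604 and 803 CPM. Respiratory chain genes were called in 0 of 21. Ribosome biogenesis genes were higher in 5 of 17: the nucleolar protein gene Npm1 was at 967 [947 to 988], 645 [615 to 676] and 372 [346 to 400] CPM.

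**Figure D4:**
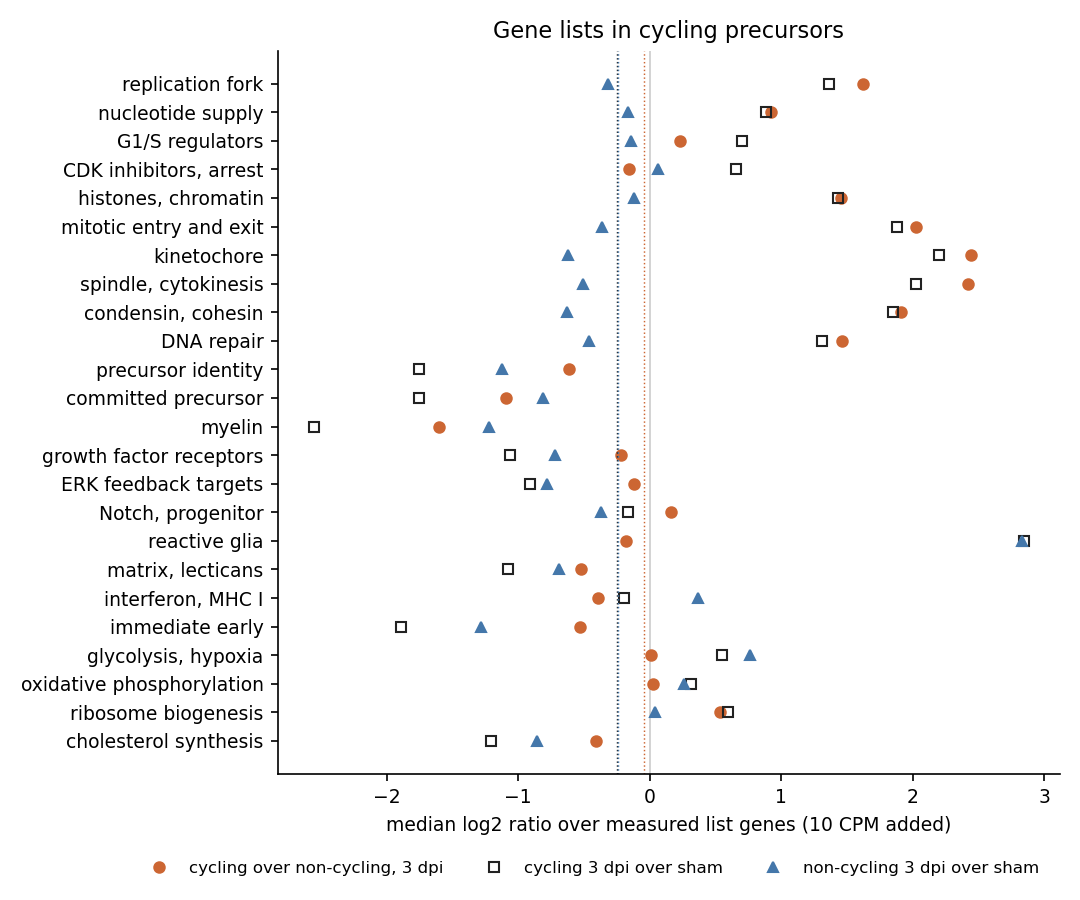
Median log2 ratio over the measured genes of each list (x axis, 10 CPM added) for cycling over non-cycling cells at 3 dpi, cycling over sham and non-cycling over sham. Dotted lines give the medians over all genes. The replication, kinetochore, spindle and mitosis lists lie far right of the lines where cycling cells are in the numerator and left of the line for non-cycling over sham, and the reactive list is near 2.8 for both 3 dpi groups. The sham group kept its 10 cells over the threshold and the non-cycling group has none by rule, so the place of the division lists is a description.

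The 10 sham precursors over the threshold offer the nearest counterpart in uninjured tissue, from 78780 UMIs in all. The threshold that split them from the other 318 sham precursors fixes higher division genes, so these are a description: 27 of 27 kinetochore genes were higher, where 11.5% of all 8661 genes were, with a median of 3.11. Mki67, a threshold gene, was at 432 CPM [299 to 603] against 457 in members. Few of their identity genes were lower: 3 of 36 were called lower than in the other sham precursors (13.7% of all genes were), with a median of -0.27. Members had 28 of 36 identity genes lower than these 10 cells, with a median of -1.36, where 20.7% of 8256 genes were lower and the median of all genes was -0.35. Olig1 was at 2412 CPM [2081 to 2780] in the 10 cells and 1145 in members, and Ptprz1 at 1498 [1240 to 1794] and 605.

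Reactive genes were lower in the cycling sham cells than in members: 15 of 19 were higher and 1 lower in members, with a median of 2.58, where 10.6% of all genes were higher. Against the other sham precursors, 5 of 16 were higher and 1 lower in the 10 cells, with a median of 0.25, on 81 UMIs or fewer per gene. Lgals1 had 3 UMIs (38.1 CPM [7.85 to 111]) and Vim 4 UMIs (50.8 [13.8 to 130]), while Cd44, Hmga2 and Aldh1a3 had 0 UMIs, which allows up to 38.1 CPM. Of 14 committed genes, 12 were lower in the 10 cells than in the other sham precursors, with a median of -1.58. All 15 myelin genes were lower there, with a median of -2.61, where 13.7% of all genes were. Members had 0 of 10 committed genes lower than the 10 cells and 1 higher, with a median of -0.57. In the 10 cells Gpr17 was at 127 CPM [60.9 to 233], below the 605 of all sham precursors, and Cdkn1c had 2 UMIs. Cdkn2c was at 546 CPM [395 to 735], above the 102 of members. Ccnd1 was at 2132 [1822 to 2480], close to the members' 2187. The 10 cells of 1 library give no measure of variation between mice.

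Cycling precursors were last set beside 1293 cycling microglia of the same library, taken by C1q genes and Tmem119, P2ry12 or Siglech under the same proliferation threshold. Of 7257 genes, 1601 were higher in precursors (22.1%) and 722 lower (9.95%), with a median of 0.42, and median-of-ratios scaling gave 1079 and 1059. Relative to that median, the replication fork list was close to it at 0.48 (1 of 34 called), while spindle and cytokinesis genes had a median of 0.97 (14 of 32). Ckap2 was at 207 CPM in precursors and 22.3 in microglia, and Prc1, which bundles the central spindle, at 438 and 97.7. Ccnd1 was at 2187 and 132 CPM. The chromatin gene Hmgb3 was at 201 and 17.5. Within microglia the same threshold also separated division genes: of 5390 genes, 178 (3.3%) were higher and 49 (0.909%) lower in cycling than in non-cycling microglia, 4.21% in all, and 19 of 19 kinetochore genes were higher. That contrast was used by the threshold too and is a description. The median depth of the cycling microglia was 15626 UMIs against 14055.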

How the data were processed

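The deposited files are UMI count matrices of genes by cell barcodes, 1 per library. Cell Ranger and Seurat are named per the submitters' processing notes, without versions. Those notes name the build GRCh38, a human assembly, although the gene symbols in the matrices are those of mouse. How barcodes were filtered before deposit is not stated in them. The tables hold 0 mitochondrial gene rows, so RNA quality could not be read from them.

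Counts were summed over the cells of each group and divided by the group's total. Calls were made by size (2-fold, 10 CPM added, 20 CPM in 1 of both groups), with the gate and proliferation genes left out of the genes tested. With 1 library per group no test was made. Summed counts were simulated with Poisson error, with 200 genes at 20 CPM or more changed 3-fold or more up or down. There the rule recovered 91.5% for cycling against non-cycling precursors (6880 genes), 93.5% against sham (7787 genes) and 95% against cycling microglia (5281 genes). The simulation held no changes near 2-fold, spread between cells, doublets or RNA of other cells, so it does not give the recovery in the real data. Thinning drew 2000 UMIs per cell without replacement. Doublets were scored against simulated pairs and kept in the main values. Sex of origin was read from sex-linked genes. Named genes were, for cycling against non-cycling and against sham, the 12 highest and 12 lowest ratios among genes at 100 CPM, 20 UMIs and 10% of cells in the higher group and at 10% or more of the highest cell gate's level, without rule, gate, ribosomal and sex-linked genes, plus up to 3 called or abundant genes of each of the 24 lists. Genes outside that rule (Bcas1, Cd44, Cdk4, Cdkn1a, Cdkn1b, Ckap2, Dll3, Gfap, Gmps, H2afx, Hells, Hmgb3, Id1, Kif11, Knl1, Lgals3, Lhfpl3, Mcm6, Nes, Olig1, Olig2, Paics, Pola1, Socs3, Sox2, Sox10 and the rule's own genes) were named after their values were seen. The members and the gene lists were chosen with earlier results of these data known. Alternatives were other depth limits, thresholds, scalings, added CPM, doublet and leukocyte filters and each sex. Tables were handled with pandas 2.3.3 and numpy 2.4.6 under Python 3.11.15, intervals came from scipy 1.17.1, neighbours from scikit-learn 1.9.0 and plots from matplotlib 3.10.9. Some genes are not reported here.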

Additional observations from a re-analysis of the deposited data

How the results depend on the processing

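No paired analysis was possible because each group is 1 library. The cycling share of 65.3% at 3 dpi was 59.5% with a threshold of 5 UMIs, 61.4% in female-derived and 73.2% in male-derived cells, 60.8% without cells at 5 or more leukocyte UMIs per 10000, and 46.1% after thinning. Mitosis-leaning members (46.1%) were 51.3% with the threshold of 5 UMIs, 50.7% in male-derived cells, 40.8% with the leukocyte limit of 5 and 55.7% with a class ratio of 1.5. Replication-leaning members (14.2%) were 10.4% in female-derived cells, 18.4% with that leukocyte limit, which left 76 members, and 21.3% with the ratio of 1.5. Genes lower in cycling than in non-cycling cells (101) numbered 160 in female-derived cells, 218 with the leukocyte limit, 228 after thinning, 212 with 1 CPM added and 165 against cells with 0 proliferation UMIs, and the higher genes (270) numbered 158 at 50 CPM or more. Against sham the lower genes (1166) numbered 1809 with 1 CPM added and 737 with median-of-ratios scaling. Against cycling microglia the higher genes (1601) numbered 943 at 50 CPM or more. In male-derived cells the log2 ratios of cycling to non-cycling cells turned positive for Ptgds (0.63), Klk6 (0.20) and Mag (0.37). The cause of these differences was not tested. Removing cells at 20 or more leukocyte UMIs per 10000, an alternative chosen after seeing the data, gave a share of 65.1% and 291 higher and 107 lower genes. Of 861 list medians under all settings, 830 moved by less than 0.58 on the log2 scale and 0 changed sign past a call, and of 2236 gene ratios 2086 moved by less. The comparison with microglia was not run under the leukocyte limits, which would remove the microglia. Without replicates, counting error is the only error that depth limits here.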
